A study of Mus musculus with 6 samples.

Results

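Immediate early genes are the genes a cell transcribes within minutes of a stimulus, from factors that are already present and without new protein synthesis. Many encode transcription factors, among them the Fos and Jun proteins that pair into the AP-1 factor, the Egr zinc finger proteins and the Nr4a nuclear receptors, and others encode effectors such as the synaptic protein Arc. In the dentate gyrus they are widely used as marks of recent neuronal activity. Here 10 such genes were followed, Fos, Fosb, Jun, Junb, Egr1, Egr2, Nr4a1, Ier2, Ier3 and Arc, out of 37620 genes in the count tables. They were chosen by their class and with measured values of these same samples in view, namely the lower level of Ier3 in Klf9 f/f samples and the joint variation of several members across samples, so their genotype differences and correlations are given as descriptions without a test.

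Ribosome-bound mRNA was profiled from the dentate gyrus of mice aged 2–3 months in 2 genotypes, each with 3 samples. Both carried Gli1CreERT2, a tamoxifen-dependent Cre driven from the Gli1 locus, and Rpl22HA f/+, which gives recombined cells an HA-tagged ribosomal protein for antibody pull-down (RiboTag). Klf9 f/f mice carried floxed Klf9, which encodes a zinc finger transcription factor, and Klf9 +/+ mice were the controls. Every mouse received tamoxifen 3 times at 250 mg/kg, 12 hr apart, the tissue was taken 4 days after the last dose, and each sample pooled 6 dentate gyri of 3 mice, so mice within a pool cannot be separated. Gli1CreERT2 recombines in radial-glial neural stem cells and in astrocytes, progeny of the stem cells that arise before sampling inherit the tag, and the profile is therefore not one of stem cells alone. The library names form 2 series that hold both genotypes, with replicates 1 and 2 of each genotype in series YTa22 and replicate 3 of each in series YTa32. The question put to these genes was whether Klf9 loss changed their level within each series, and whether they rose and fell together across samples.

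Total counts on genes were 27594529 to 58864965 in Klf9 +/+ and 21594714 to 66343759 in Klf9 f/f samples, with the shallowest sample of each genotype in series YTa32. Klf9 itself stood at 201, 204 and 139 CPM (read counts relative to the TMM-scaled library size) in Klf9 +/+ versus 114, 121 and 120 CPM in Klf9 f/f samples, lower in every Klf9 f/f sample (log2 fold change -0.59 ± 0.15 SE, adjusted p = 0.844, edgeR quasi-likelihood test with Benjamini-Hochberg adjustment). The log2 difference of Klf9 was uneven between the series, -0.78 in YTa22 and -0.21 in YTa32, the latter from 1 sample per genotype. Radial glia markers were present throughout, with Sox2 at 194 to 272 CPM and Hopx at 746 to 1051 CPM, and so were markers of other cells, since granule neuron markers summed to 1266 to 1534 CPM and no marker of any list was at 0 in a sample. Of 15056 genes that passed 1 CPM in at least 1 sample, 0 had an adjusted p under 0.05 between genotypes by this test (smallest 0.0683), 650 had an unadjusted p under 0.05, and the likelihood-ratio test and DESeq2 put 58 and 39 under the adjusted threshold. A gene is termed called where it changed at least 1.2-fold with an unadjusted p under 0.05, which held for 274 genes higher (1.82%) and 376 genes lower (2.50%) in Klf9 f/f. In such bulk samples, fewer cells of a type and less RNA per cell cannot be told apart.

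Promoter windows of 4 members are given first. Shown are the 250 bases upstream of the RefSeq start, 5′ to 3′ on the gene's strand, of Ier3, the member with a genotype gap, and of Fos, Junb and Nr4a1, whose genotypes overlapped. Capitals mark TGACG, the core of the cAMP response element read by CREB and ATF factors, and GGGCGG, the GC box read by Sp and Klf factors, each on either strand (CGTCA and CCGCCC in reverse). The windows, on GRCm38.p6 from RefSeq, were chr17:35821463-35821712 (+) for Ier3, chr12:85473640-85473889 (+) for Fos, chr8:84978749-84978998 (−) for Junb and chr15:101266596-101266845 (+) for Nr4a1.
Ier3: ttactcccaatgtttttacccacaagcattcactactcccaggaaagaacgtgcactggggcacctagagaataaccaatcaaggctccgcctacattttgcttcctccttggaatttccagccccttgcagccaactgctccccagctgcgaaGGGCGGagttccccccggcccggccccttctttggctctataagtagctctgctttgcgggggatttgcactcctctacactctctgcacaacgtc
Fos: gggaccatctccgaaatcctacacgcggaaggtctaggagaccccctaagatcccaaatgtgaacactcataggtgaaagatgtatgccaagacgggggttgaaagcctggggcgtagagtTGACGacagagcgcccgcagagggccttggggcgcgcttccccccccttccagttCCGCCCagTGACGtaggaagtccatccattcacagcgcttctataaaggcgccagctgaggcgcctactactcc
Junb: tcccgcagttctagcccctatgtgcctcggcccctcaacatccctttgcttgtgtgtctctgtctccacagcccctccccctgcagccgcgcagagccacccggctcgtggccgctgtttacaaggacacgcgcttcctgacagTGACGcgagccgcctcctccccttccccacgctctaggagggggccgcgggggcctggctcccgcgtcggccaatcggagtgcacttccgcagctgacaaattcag
Nr4a1: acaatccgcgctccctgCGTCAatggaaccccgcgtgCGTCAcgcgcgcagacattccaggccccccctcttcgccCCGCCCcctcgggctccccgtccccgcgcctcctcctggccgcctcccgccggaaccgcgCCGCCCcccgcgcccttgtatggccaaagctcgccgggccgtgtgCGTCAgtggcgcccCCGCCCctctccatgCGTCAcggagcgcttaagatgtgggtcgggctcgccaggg
The Nr4a1 window held 4 CRE cores (TGACG) and 3 GC boxes, the Fos window 2 and 1, the Junb window 1 and 0, and the Ier3 window 0 and 1. RefSeq windows were at hand for 7 members, all but Ier2, Arc and Egr1, and a gene with several starts was counted once if any of its windows held the letters. The CRE core was found in 5 of 7 (Egr2, Fos, Fosb, Junb and Nr4a1) against 19.8% of 27025 genes, and the GC box in 6 of 7, all but Junb, against 35.4%. CACCC, another element read by Klf factors, was found in 4 of 7 against 54.5%. The CArG box read by serum response factor was found in 1 of 7, Egr2, against 1.62%, TATAAA in 1 of 7, Fos, against 14.3%, and the AP-1 site (TGAC or TGAG followed by TCA) in 0 of 7 against 5.16%. The CRE core and the GC box share no overlapping match in the windows printed, and these are matches of letters in a short stretch of sequence.

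The members are compact genes. In the GENCODE M1 annotation of mm9, the build of the counts, their spans ran from 1240 bp for Ier3 to 7947 bp for Nr4a1 with a median of 3436 bp and 3 exons, whereas 14071 protein-coding genes tested had a median of 24317 bp and 9 exons. Spans no longer than that of Nr4a1 belonged to 20.5% of those genes. ATTTA, the core of the AU-rich elements through which short-lived mRNAs are marked for decay, occurred in the annotated 3′UTR of 8 of 10 members against 68.3% of protein-coding genes, with a median of 2.87 per kb against 1.197 per kb. Ier3 had 5 copies in 613 bp, the densest among the members at 8.16 per kb, and Ier2 and Arc had 0.

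Levels spanned a wide range. Per kb of exon, the mean over the 6 samples was 44.5 CPM for Jun, 26.6 for Ier2, 13.9 for Junb, 12.3 for Ier3, 7.65 for Egr1, 6.47 for Fos, 2.70 for Nr4a1 and 1.98 for Arc, and only 0.0855 for Egr2 and 0.0840 for Fosb. Jun was above Ier2, Ier2 above Junb, Fos above Nr4a1 and Arc above Egr2 without overlap of the 6 samples, the second of these narrowly (lowest Ier2 18.9, highest Junb 18.5 CPM per kb). The neighbours Junb and Ier3, Ier3 and Egr1, Egr1 and Fos, Nr4a1 and Arc, and Egr2 and Fosb overlapped. The classical activity marker Arc and the readily induced Fosb were thus among the lowest of the members in this ribosome-bound RNA, and Fosb and Egr2, with 5 to 16 and 8 to 16 counts per sample, did not pass the filter and entered no fit.

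**Figure D1:**
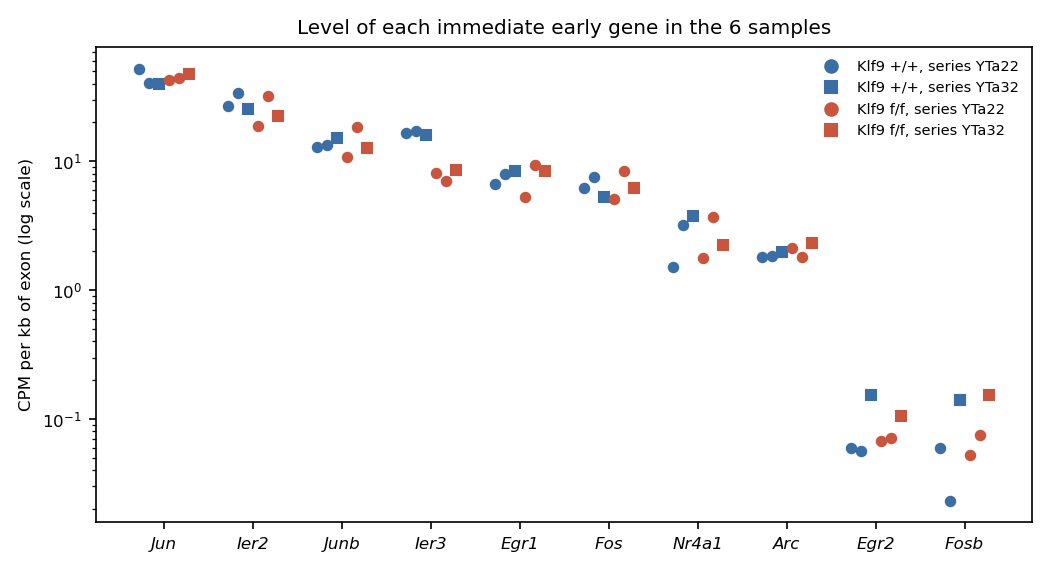
Level of the 10 immediate early genes in each of the 6 samples, in CPM per kb of exon on a log axis, with genotype by colour and library series by symbol. Samples of Ier3 form 2 separate bands by genotype, at 15.9 to 17.0 and 7.08 to 8.58 CPM per kb, and those of the other members mix.

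Among the AP-1 subunits no genotype gap was seen. In the order of the replicate numbers, kept throughout, Fos (mm9 chr12:86814840-86818223) had levels of 14.6, 17.8 and 12.5 CPM in Klf9 +/+ pools and of 11.9, 19.9 and 14.7 CPM in Klf9 f/f pools. Klf9 f/f replicate 2 was the highest and Klf9 f/f replicate 1 the lowest of all, so the genotypes overlapped fully (fitted log2 fold change 0.06 ± 0.22 SE, with -0.07 in series YTa22 and 0.23 in series YTa32). Junb (chr8:87500811-87502617), a partner of Fos that often restrains Jun, was at 23.4, 24.2 and 27.5 CPM in Klf9 +/+ versus 19.4, 33.5 and 22.8 CPM in Klf9 f/f samples. Here too the extremes were both Klf9 f/f samples of series YTa22, and the fitted difference was 0.01 ± 0.21 SE.

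Jun (chr4:94715725-94718913), the most abundant member, was steadier, at 167, 129 and 127 CPM in Klf9 +/+ and 136, 141 and 153 CPM in Klf9 f/f samples. Its highest sample was 1.32 times its lowest, against 1.67 for Fos and 1.73 for Junb, and the fitted log2 difference was 0.03 ± 0.15 SE. The exons of Jun share 232 bp with those of BC042782 on the other strand, and since counting ignored strand, reads there cannot be assigned. Fosb (chr7:19888070-19895394) was at 0.22, 0.09 and 0.52 CPM in Klf9 +/+ and 0.20, 0.28 and 0.58 CPM in Klf9 f/f samples, with the higher values in both samples of series YTa32.

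The zinc finger factor Egr1, which binds GC-rich DNA, was at 20.7, 24.6 and 25.9 CPM in Klf9 +/+ and 16.2, 28.9 and 26.0 CPM in Klf9 f/f samples. The means differed by less than their spread, 23.7 ± 2.71 and 23.7 ± 6.66 CPM (SD, n = 3 each), while the Klf9 f/f samples of series YTa22 again held both the highest and the lowest value. Egr1 shares 8 bp of exon with Gm17507 on the other strand. Egr2 (chr10:66998223-67004936), which is also known for its part in myelination, was at 0.20, 0.19 and 0.52 CPM in Klf9 +/+ and 0.23, 0.24 and 0.36 CPM in Klf9 f/f samples. Nr4a1 (chr15:101097277-101105223), an orphan nuclear receptor, varied most among the members that were tested, at 3.74, 7.93 and 9.31 CPM in Klf9 +/+ and 4.40, 9.19 and 5.57 CPM in Klf9 f/f samples. Its highest sample was 2.49 times its lowest, both were Klf9 +/+ samples, and the fitted log2 difference of -0.09 ± 0.38 SE joined a difference of 0.22 in series YTa22 to one of -0.74 in series YTa32.

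Ier3 parted from the rest. Ier3 (chr17:35958629-35959868, plus strand), which encodes a stress-inducible protein that acts in cell survival, stood at 18.9, 19.3 and 18.0 CPM in Klf9 +/+ versus 9.23, 8.00 and 9.71 CPM in Klf9 f/f samples. The means were 18.7 ± 0.633 CPM in Klf9 +/+ and 8.98 ± 0.879 CPM in Klf9 f/f (SD, n = 3 each), and the lowest Klf9 +/+ sample was above the highest Klf9 f/f sample. The fitted log2 fold change was -1.06 ± 0.16 SE, a level 0.478 times that of Klf9 +/+, with -1.15 in series YTa22 and -0.89 in series YTa32. The raw counts behind these levels were 552 to 1108 in Klf9 +/+ and 218 to 605 in Klf9 f/f samples. Ier3 was thus the 1 member of 8 tested that met the rule for a called gene and the 1 whose genotypes did not overlap, where 2.50% of all genes were called lower and 1.35% had every Klf9 f/f sample below every Klf9 +/+ sample (2.03% above). As Ier3 was chosen on this difference, nothing is read from that count.

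By contrast Ier2 (chr8:87185230-87186751), the other member named for an immediate early response, overlapped between genotypes. It was at 40.9, 51.6 and 38.6 CPM in Klf9 +/+ versus 28.8, 48.8 and 34.0 CPM in Klf9 f/f samples, with a fitted log2 difference of -0.23 ± 0.20 SE. The difference had the same sign in both series, -0.29 in YTa22 and -0.18 in YTa32, yet Klf9 f/f replicate 2 exceeded 2 of 3 Klf9 +/+ samples. The value depended on marker levels, being -0.68 ± 0.17 SE with the endothelial, mural and meningeal level in the fit, 0.13 ± 0.45 SE with the choroid plexus level and -0.45 ± 0.31 SE with the granule neuron level. Arc (chr15:74499513-74503000), whose protein acts at synapses in the removal of AMPA receptors, varied least among the members that were tested, at 5.52, 5.65 and 6.08 CPM in Klf9 +/+ and 6.46, 5.51 and 7.08 CPM in Klf9 f/f samples. Its highest sample was 1.28 times its lowest and the fitted log2 difference was 0.14 ± 0.20 SE. Over the 7 tested members other than Ier3 the median fitted log2 difference was 0.01, from -0.23 to 0.14, next to 0.0008 over all genes tested.

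**Figure D2:**
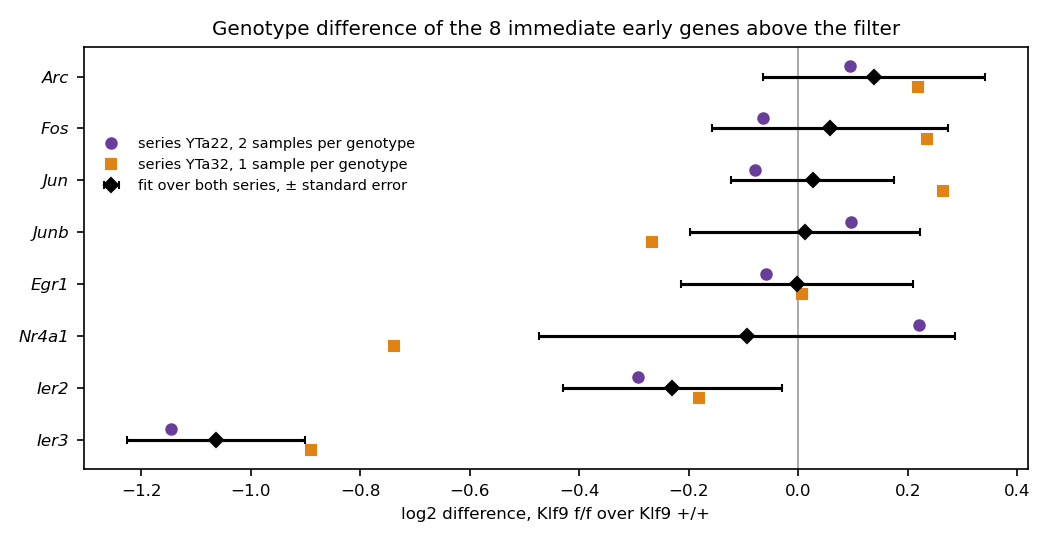
Log2 difference of Klf9 f/f over Klf9 +/+ for the 8 members above the filter, with the fitted value and its standard error (diamonds) and the difference within series YTa22 (circles) and YTa32 (squares). Ier3 sits at -1.06 with both series below -0.8, and the fitted values of the other members lie between -0.23 and 0.14.

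The genes tested past the end of Ier3 did not share its gap. On mm9, 11 genes within 100 kb of Ier3 were tested, a set picked after the Ier3 values were known. All 11 lie on the side past its end, so none stands for the side before its start. Of them 0 were called in either direction, beside 1.82% of all genes called higher and 2.50% lower, shares at which 0 of 11 says little. Their fitted log2 fold changes ran from -0.16 to 0.15, and Flot1, which starts 307 bp past Ier3 and encodes a membrane scaffold protein, was at 0.09 ± 0.12 SE. These 11 neighbours had 0 adjusted p under 0.05 in the edgeR quasi-likelihood test, as did all genes.

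Markers of astrocytes, which Gli1CreERT2 also targets, and of other cell types moved with genotype too, and their values are given beside Ier3. Markers of endothelial cells, which line vessels, summed to 389, 154 and 248 CPM in Klf9 +/+ and to 247, 61.1 and 87.9 CPM in Klf9 f/f samples; 10 of 10 had a fitted fold change below 0 and 3 were called lower. Mural and meningeal markers summed to 1042 to 1887 CPM in Klf9 +/+ and 598 to 1144 CPM in Klf9 f/f samples, with 12 of 12 below 0 and 3 called lower. Choroid plexus markers summed to 139 to 2676 and 21.6 to 409 CPM, with 10 of 10 called lower, and astrocyte markers to 13208 to 16524 and 16488 to 19848 CPM, with 4 of 12 called higher. Of all genes, 1.82% were called higher and 2.50% lower. The 4 sums overlapped between the genotypes, that of the astrocyte markers narrowly. Marker levels were also added to the fit, each as the mean log2 CPM over the markers named and not as the sums above. With the endothelial, mural and meningeal level, the log2 fold change of Ier3 was -1.02 ± 0.21 SE. With the choroid plexus level instead it was -1.09 ± 0.36 SE, and with the granule neuron level -1.02 ± 0.26 SE. The part of these cell types in the Ier3 difference was not tested.

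**Figure D3:**
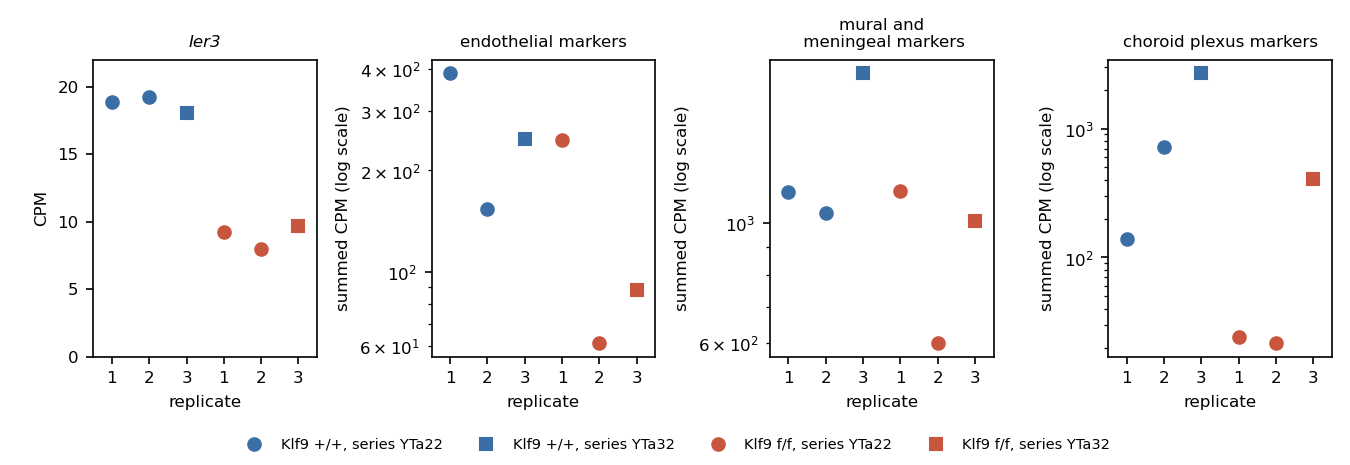
Level of Ier3 in CPM (linear axis from 0) and summed CPM of endothelial, mural and meningeal, and choroid plexus markers (log axes) in the 6 samples, with genotype by colour and library series by symbol. Ier3 forms 2 bands near 18.7 and 8.98 CPM, and each marker sum overlaps between the genotypes.

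The remaining question was whether the members rose and fell together. For each gene the mean log2 CPM of its series was subtracted, which leaves the deviation of a sample from its series and makes the 2 values of YTa32 mirror images. Over the 28 pairs of the 8 tested members the median Pearson r across 6 samples was -0.02 and 12 pairs were above 0, next to a median of -0.004 over all 113334040 pairs of genes tested, of which 49.8% were above 0. The samples in each pair share library and depth, and r is given as a description. By this measure the 8 members were about as often opposed as aligned. Without Klf9 f/f replicate 2 the median became 0.40, and without Klf9 f/f replicate 1 it was -0.09. The genotype mean was not subtracted, so the pairs with Ier3 largely carry its genotype gap. With Ier3 left out and all 6 samples kept, the median over 21 pairs was 0.12 and 11 were above 0.

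Within the tested members, Fos, Junb, Egr1, Nr4a1 and Ier2 varied in parallel. This group was picked after the values were seen and carries no test. Its 10 pairs had a median r of 0.77, from 0.63 between Fos and Nr4a1 to 0.96 between Fos and Egr1, and the median stayed between 0.70 and 0.89 with each sample left out in turn. Klf9 f/f replicate 1 was the lowest sample of series YTa22 for Fos, Junb, Egr1 and Ier2, with deviations of -0.40, -0.35, -0.45 and -0.53 on the log2 scale. Klf9 f/f replicate 2 was the highest for Fos, Junb, Egr1 and Nr4a1, at 0.34, 0.44, 0.39 and 0.64. Both are Klf9 f/f samples, so these extremes lay within a single genotype. Over all genes tested, Klf9 f/f replicate 1 was the lowest of the 4 samples for 29.5% and Klf9 f/f replicate 2 the highest for 20.4%. In series YTa32 the genes of this group did not move as one, since Klf9 f/f minus Klf9 +/+ was 0.23 for Fos, 0.01 for Egr1, -0.18 for Ier2, -0.27 for Junb and -0.74 for Nr4a1.

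Jun and Arc took other courses, and Ier3 followed its genotype gap. Jun was highest in Klf9 +/+ replicate 1 and lowest in Klf9 +/+ replicate 2 of series YTa22, and r was -0.72 with Nr4a1 and -0.01 with Fos. Arc ran against the group, with r of -0.79 with Ier2, -0.75 with Junb and -0.63 with Egr1, over a range of deviations no wider than -0.11 to 0.16. The median r of Ier3 with the other 7 was -0.08, from -0.57 with Arc to 0.39 with Ier2. The deviations of Ier3 were 0.45 to 0.59 in Klf9 +/+ and -0.68 to -0.45 in Klf9 f/f samples. These r values therefore mostly restate the genotype gap on which Ier3 was chosen, and are no separate finding. In Klf9 f/f replicate 2, the highest of the 4 samples of series YTa22 for Fos, Junb, Egr1 and Nr4a1, Ier3 was at its lowest.

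**Figure D4:**
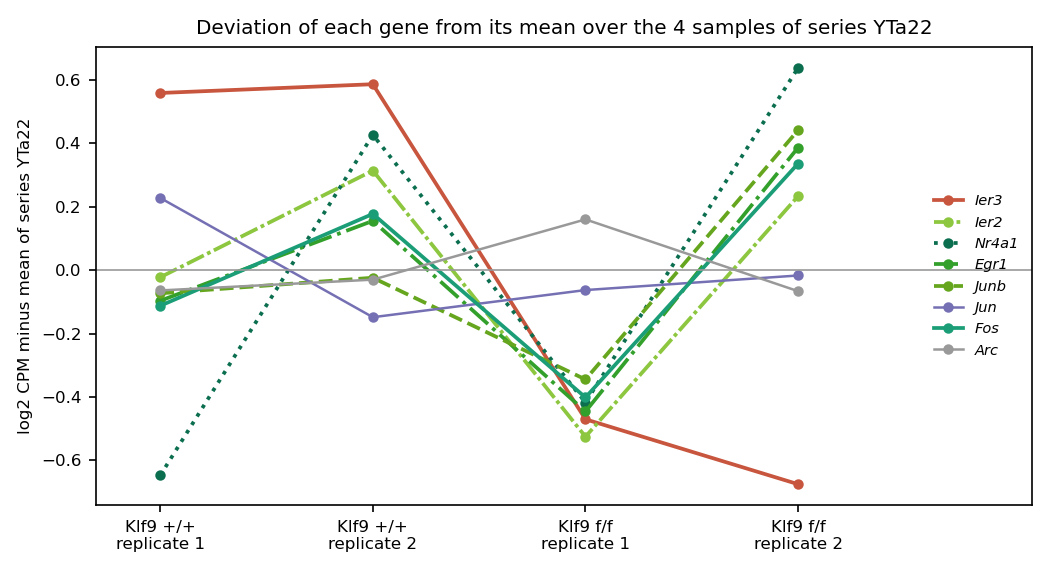
Deviation of log2 CPM from the mean of series YTa22 in its 4 samples, for the 8 members above the filter. The green lines (Fos, Junb, Egr1, Nr4a1, Ier2) all lie below 0 in Klf9 f/f replicate 1 and above 0 in Klf9 f/f replicate 2, while Ier3 is below 0 in both.

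The 5 genes outside every list whose course was most like the mean of the members, at a mean of 10 CPM or more, were 0610037P05Rik, Gtf2e2, Pim3, Yrdc and Trp53i11, with r from 0.994 to 0.998 over the 6 samples. They were picked as the highest r among many genes over few values, so an r near 1 carries no weight here. The members did not all follow their mean. Their r with it was 0.78 to 0.99 for Fos, Junb, Egr1, Nr4a1 and Ier2, 0.38 for Ier3, -0.28 for Jun and -0.82 for Arc. Pim3, which encodes a serine/threonine kinase, was at 69.0, 77.2 and 83.9 CPM in Klf9 +/+ and 61.5, 76.1 and 78.8 CPM in Klf9 f/f samples. Gtf2e2, a subunit of the general transcription factor TFIIE, was at 107, 118 and 70.1 CPM in Klf9 +/+ and 91.2, 118 and 62.9 CPM in Klf9 f/f samples. Both were lowest in Klf9 f/f replicate 1 among the samples of series YTa22. Among 54 other immediate early genes the median r with this mean was 0.25 and 34 were above 0, next to 49.7% above 0 over all genes. The likeness of Dusp1, a phosphatase that switches off MAP kinases and was named after its values were seen, was 0.987, and it stood at 48.5, 74.3 and 60.1 CPM in Klf9 +/+ and 34.99, 73.2 and 43.2 CPM in Klf9 f/f samples. That r was the highest of the 54, and the lowest was -0.92 for Tiparp.

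Between the library series, which was not the contrast the members were proposed for, no member passed the test. Joint variation across the 6 samples was in view when they were chosen, so this contrast is not independent of the choice. Of all genes, 12.9% were higher and 16.6% lower in YTa32 at an adjusted p under 0.05, but 0 of 8 members passed in either direction by the edgeR quasi-likelihood test, 0 had an unadjusted p under 0.05, and 0 passed by the likelihood-ratio test or DESeq2. Their fitted log2 differences, YTa32 over YTa22, ran from -0.24 ± 0.23 SE for Fos to 0.23 ± 0.40 SE for Nr4a1, with Benjamini-Hochberg adjusted p from 0.448 to 0.990. Among 54 other immediate early genes 8 were higher and 5 lower. The contrast rests on 2 samples of YTa32: without Klf9 +/+ replicate 3 only 50 genes in all were higher and 34 lower, and without Klf9 f/f replicate 3 the counts were 283 and 281.

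A wider list of 55 other immediate early genes, compiled with results of these data known, was then examined in the genotype contrast. Of 54 tested, 0 were called higher and 4 lower, Klf2, Klf4, Klf6 and Ctgf, beside 1.82% and 2.50% of all genes, and 0 had an adjusted p under 0.05 by edgeR's quasi-likelihood test. The likelihood-ratio test and DESeq2 called the same 4 genes at the 1.2-fold rule. The list's median log2 fold change was -0.09 and 36 of 54 were below 0, next to 0.0008 over all genes, of which 7503 of 15056 were below 0. The count of 4 became 0 without Klf9 f/f replicate 3, where the log2 fold changes were -0.44 for Klf6, -0.80 for Klf4, -0.56 for Klf2 and -0.52 for Ctgf, and only Klf6 was called without Klf9 +/+ replicate 3 or in series YTa22 alone. Klf2 also lost its call without Klf9 +/+ replicate 1 (-0.46) or Klf9 f/f replicate 2 (-0.51), and Klf4 without Klf9 +/+ replicate 1 (-0.83).

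The Klf and Myc group held 3 of the 4, all of them relatives of Klf9. Klf4, a zinc finger factor known from pluripotent and vascular cells, was at 5.74, 2.99 and 8.99 CPM in Klf9 +/+ and 2.29, 2.73 and 2.98 CPM in Klf9 f/f samples (log2 fold change -1.05 ± 0.32 SE, adjusted p = 0.979 in the edgeR quasi-likelihood test with Benjamini-Hochberg adjustment). Klf6, a broadly expressed injury-responsive factor, was at 70.0, 55.4 and 61.1 CPM in Klf9 +/+ and 46.1, 46.0 and 42.2 CPM in Klf9 f/f samples (-0.47 ± 0.14 SE, adjusted p = 0.959, same test). Both kept their genotypes apart, though for Klf4 by a margin of 2.99 against 2.98 CPM. Klf2, a flow-responsive factor of endothelial cells, was at 29.0, 15.3 and 26.9 CPM in Klf9 +/+ and 19.9, 10.1 and 13.1 CPM in Klf9 f/f samples, with overlap (-0.71 ± 0.30 SE, adjusted p = 1.00, same test). The 6 samples had the same order by Klf2 as by their endothelial sum. In that sum Klf9 +/+ replicate 3 and Klf9 f/f replicate 1 were almost level, at 247.6 and 247.4 CPM. With the endothelial, mural and meningeal level in the fit the log2 fold change of Klf2 was -0.03 ± 0.21 SE. The part of endothelial cells in the Klf2 difference was not tested. Myc and Klf10 were at 0.18 ± 0.21 and -0.02 ± 0.17 SE.

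Ctgf, which encodes a secreted matrix-associated protein, was at 35.8, 55.5 and 135 CPM in Klf9 +/+ and 28.3, 35.5 and 39.8 CPM in Klf9 f/f samples (-0.93 ± 0.27 SE, adjusted p = 0.959, same test). Klf9 +/+ replicate 3, the sample with the highest choroid plexus and mural and meningeal sums, was the high sample, the difference was -0.52 ± 0.24 SE without it, and with choroid plexus markers as a covariate the value was 0.17 ± 0.50 SE. A fit with the endothelial, mural and meningeal level called 8 genes lower, of which Ctgf (-1.06 ± 0.34 SE) was the only one of the 4 above, while Klf4 was at -0.84 ± 0.44 SE and Klf6 at -0.38 ± 0.18 SE. With the choroid plexus level the 3 Klf genes were called at larger differences, -1.54 for Klf2, -1.82 for Klf4 and -0.82 for Klf6. With the granule neuron level none of the 3 was called, at -0.17, -0.62 and -0.27, and Ctgf was called at -1.64. The part of those cells in these differences was not tested.

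In the other role groups 0 genes were called in the fit without marker levels. Of 8 AP-1 and related factors 6 were below 0, and the most abundant, Jund, was at 137, 160 and 223 CPM in Klf9 +/+ and 98.2, 184 and 203 CPM in Klf9 f/f samples (-0.09 ± 0.21 SE), again lowest in Klf9 f/f replicate 1. Jund was called lower with the endothelial, mural and meningeal level in the fit, at -0.59 ± 0.19 SE. It was not called with the choroid plexus level (0.17 ± 0.50 SE) or the granule neuron level (-0.27 ± 0.34 SE). Of 6 Egr, Nr4a and neuronal activity factors 4 were above 0, and Nr4a2 was at 0.03 ± 0.23 SE. The group labelled feedback inhibitor of signalling or mRNA is a mixed one that also holds other genes, such as Mcl1 and Rhob. Of its 21 genes 15 were below 0. Gadd45g, its most abundant and a growth arrest and DNA damage response gene, was at 271 to 403 CPM in Klf9 +/+ and 288 to 495 CPM in Klf9 f/f samples (0.18 ± 0.16 SE). Of 12 neuronal activity effectors 7 were below 0, and Rheb, the small GTPase that activates mTORC1, was at -0.03 ± 0.13 SE.

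**Figure D5:**
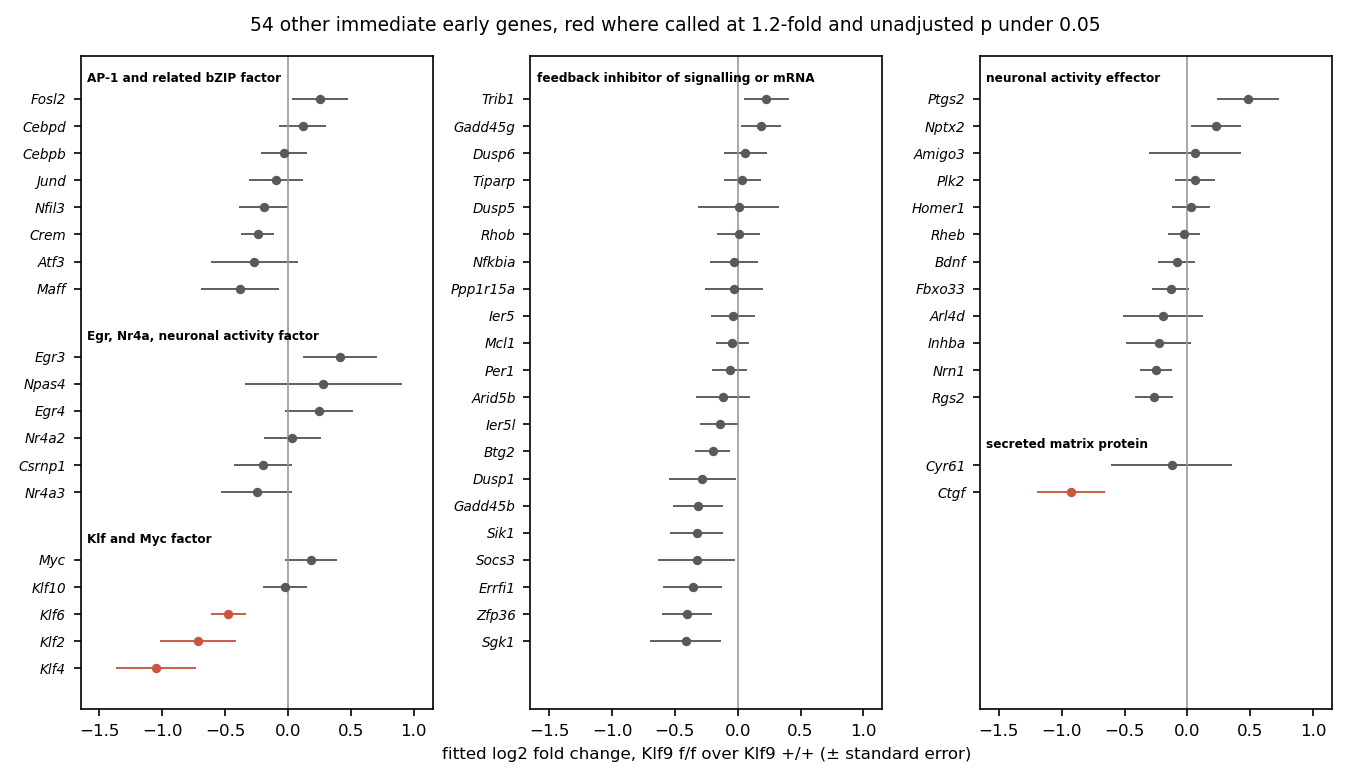
Fitted log2 fold change of Klf9 f/f over Klf9 +/+ with its standard error for the 54 other immediate early genes tested, grouped by role, with the called genes in red. The 4 red genes, Klf6, Klf2, Klf4 and Ctgf, lie between -0.47 and -1.05, and 36 of 54 lie below 0.

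The factors and kinases that switch immediate early genes on were not called between genotypes in the fit without marker levels. Of 27 upstream regulators 0 were called, beside 1.82% of all genes called higher and 2.50% lower, shares at which a count of 0 says little. Their median log2 fold change was -0.04, from -0.34 to 0.17. In 2 of the 27 every Klf9 f/f sample was below every Klf9 +/+ sample, beside 1.35% of all genes. Mkl2, a coactivator of serum response factor, was at -0.11 ± 0.17 SE, Crtc1, a coactivator of CREB, at 0.17 ± 0.12 SE, and the transcription factor Mef2d at 0.07 ± 0.12 SE. With the choroid plexus level in the fit Mkl2 was called lower, at -0.79 ± 0.29 SE. It was not called with the endothelial, mural and meningeal level (-0.03 ± 0.24 SE) or the granule neuron level (0.32 ± 0.23 SE). Levels of these mRNAs say nothing of the phosphorylation through which the kinases and CREB act.

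Heat shock genes, which respond to tissue stress, were examined beside the members. Of 10 tested, 1 was called, Hspb1, a small heat shock protein, at 57.1, 23.0 and 50.9 CPM in Klf9 +/+ and 17.4, 19.7 and 21.6 CPM in Klf9 f/f samples (-1.15 ± 0.28 SE, adjusted p = 0.783 in the edgeR quasi-likelihood test with Benjamini-Hochberg adjustment). Its genotypes did not overlap. With the endothelial, mural and meningeal level in the fit the value was -0.87 ± 0.41 SE, with the granule neuron level -0.28 ± 0.33 SE, and with the choroid plexus level -2.46 ± 0.37 SE. The other 9 were not called, and 4 of the 10 were above 0. Of all genes, 1.82% were called higher and 2.50% lower, and 1.35% had every Klf9 f/f sample below every Klf9 +/+ sample.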

How the data were processed

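Ribosome-bound mRNA was sequenced in 3 Klf9 +/+ and 3 Klf9 f/f samples. The deposited files hold whole-number counts per gene, which the authors made with STAR on mm9 and HTSeq, without regard to strand and without normalization. The 5 summary lines of each file stayed out of library sizes and tests. The members and all gene lists were chosen with earlier results of these data known.

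Of 37620 genes, 37205 had a name in GENCODE M1. The 15056 genes that exceeded 1 CPM in 1 or more samples entered a quasi-likelihood fit (edgeR 4.0.16, R 4.3.3, TMM factors, glmQLFTest), with genotype and library series as terms and 3 residual degrees of freedom (common biological coefficient of variation 0.1978). A standard error was the log2 fold change divided by the square root of F. Log2 CPM used a prior count of 2. CPM per kb divided by the union of exons. P-values measure the spread between pools of mice, part of which may be technical. Totals of 21594714 to 66343759 counts left the least precision in series YTa32.

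Named were all members, each called gene of the other lists, the most abundant gene of a role group with none called, the 5 genes outside all lists most correlated with the members' mean, and Klf9, apart from 1 gene that is not reported here. Promoter sequences came from RefSeq (GRCm38.p6), and gene positions from mm9. As alternatives, the series term was dropped, filters were changed, each sample was left out, series YTa22 was used alone, marker levels were added as covariates, and upper-quartile factors, DESeq2 1.42.0 and a likelihood-ratio test were tried. Each marker level used as a covariate was the mean log2 CPM over its markers. The scripts were tested on simulated data. Figures used matplotlib 3.10.9.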

Additional observations from a re-analysis of the deposited data

Results flagged for a closer look

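No member moved in opposite directions in the 2 library series with every sample of the genotypes apart. Of 54 other immediate early genes 6 did, a share close to the 9.94% of all genes, so the count says little about these genes. The difference between series was not tested for any of them. The log2 difference of Klf9 f/f from Klf9 +/+ in series YTa22 and in series YTa32 was 0.378 and -0.69 for Amigo3. For Csrnp1 it was -0.322 and 0.0577. For Myc it was 0.334 and -0.159. For Nr4a2, the relative of Nr4a1, it was 0.239 and -0.414. For Per1 it was -0.163 and 0.142, and for Trib1 it was 0.367 and -0.056.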

How the results depend on the processing

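No paired analysis was possible because the replicate numbers are running numbers that pair no samples. The fitted log2 fold change of Ier3 ran from -1.15 to -0.98 over 16 alternatives, all below 0, and that of Arc from 0.08 to 0.21. Over the 8 members and 16 alternatives, 119 of 128 values moved by less than the residual spread, and 9 moved further, all with a marker covariate. With endothelial, mural and meningeal markers these were Fos at -0.39, Junb at -0.34, Egr1 at -0.47 and Ier2 at -0.68; with choroid plexus markers Jun at -0.49, Nr4a1 at 1.47 and Ier2 at 0.13; and with granule neuron markers Jun at 0.36 and Nr4a1 at -1.02. The cause was not tested.

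Genes called higher and lower numbered 50 and 163 without a series term, 513 and 926 with no filter beyond 1 count, 163 and 202 in series YTa22 alone, and 795 and 771 with the endothelial, mural and meningeal level as covariate, and 614 were lower with choroid plexus markers. With 1 sample left out they ran from 130 to 493 higher and from 209 to 719 lower. Other immediate early genes called lower were 1 in series YTa22 alone (Klf6), 8 with the endothelial, mural and meningeal covariate, which also called 1 higher (Ptgs2), and 0 to 7 with 1 sample left out. Genes different between series ran from 50 to 2640 higher and from 34 to 2916 lower in YTa32 with 1 sample left out, and in each of 11 alternatives 0 members passed. The median r over member pairs was -0.0922 to 0.40 with 1 sample left out, above 0 without Klf9 +/+ replicate 1 (0.18), Klf9 +/+ replicate 2 (0.08) or Klf9 f/f replicate 2 (0.40). The median over Fos, Junb, Egr1, Nr4a1 and Ier2, an alternative added after the data were seen, was 0.89 in series YTa22 alone. Ctgf reached 0.17 with the choroid plexus covariate. Klf9 was at -0.72 ± 0.33 SE with that covariate and at -0.49 ± 0.23 SE with the granule neuron covariate, and was called in neither fit.

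Precision is limited by 1 sample per genotype in YTa32 and by 125 to 457 counts for Nr4a1, and the 5 to 16 counts of Fosb and Egr2 allow no comparison.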
